A study of Caenorhabditis elegans with 12 samples.

Results

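The col genes of Caenorhabditis elegans, the large family of short collagens that build the worm's cuticle, were followed through 12 polyadenylated RNA libraries. Members were the rows of the count tables whose sequence name mapped to a symbol made of col, a hyphen and a number. This gave 158 genes of 20389 gene rows, of which 156 are annotated as protein coding and 2, col-66 and col-182, as pseudogenes. All animals shared the temperature-sensitive allele fog-1(q253) and were kept at 25 °C, where the germline of XO animals and of XX animals makes oocytes in place of sperm. The 4 groups of 3 libraries were gonads dissected from XO young adults, gonads dissected from XX young adults, whole XO young adults and whole XX young adults. XO animals have a male body and XX animals a hermaphrodite body, here called female because it makes no sperm. No group without the allele was part of the study, so nothing below separates the effect of the allele from that of the karyotype. Each gonad sample pooled at least 200 gonads, with their somatic cells, and each whole worm sample at least 600 hand-picked animals. Separate cultures are not stated for the replicates, and p-values therefore measure the spread between these libraries, part of which may be technical.

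The cuticle is an extracellular coat secreted by the epidermis, and collagens cross-linked to each other are its main material. It is rebuilt at each molt, and sets of collagen genes are switched on in succession within a molt, while others belong to the larva, the dauer or the adult. A chain is hydroxylated on its prolines, folded into a triple helix with other chains, cut at its ends by proteases, secreted and then cross-linked. The male adult differs from the hermaphrodite on its surface too, with a fan and sensory rays on the tail where the hermaphrodite has a tapered tail, and with no vulva. Germ cells make no cuticle.

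Libraries held 7912618 to 16140259 gene counts. In XO animals fog-1 transcripts stood at 592.8 ± 4.22 CPM in gonads and 292.5 ± 9.94 in worms, and in XX animals at 46 ± 5.25 and 30.1 ± 1.36 (mean ± SD, n = 3). CPM are read counts relative to library size, scaled between libraries by the trimmed mean of M-values (TMM). The allele is present in every library, and its RNA level is no check of genotype, though XO and XX libraries did not overlap in either tissue. Transcripts of 4 genes of male somatic cells (mab-3, her-1, lov-1 and pkd-2) summed to 120.3 to 128.5 CPM in XO worms and to 2.63 to 2.98 in XX worms. XX gonad replicate 1 stood apart from the other XX gonads, with a chi-square per degree of freedom of 112.5 and 155 between their counts, against 4.8 to 19.7 for the other pairs of replicates. For many gonad results, values or calls without a library are also given.

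Whole worms of both karyotypes gave col genes shares of their transcripts that overlapped. The share of gene counts was 4.76%, 4.29% and 4.91% in the XO worms and 4.21%, 4.9% and 4.35% in the XX worms, or 4.66% ± 0.322 and 4.48% ± 0.364 (SD, n = 3). In bulk samples a lower share of a cell type and less RNA per cell cannot be told apart. Exact Clopper-Pearson 95% intervals reached no further than 0.015 percentage points to either side, which covers counting error only. A small number of members held nearly all of it: 26 genes that reached 200 CPM in XO or XX worms made up 99% of col counts in each karyotype. At the other end, 62 members stayed under 1 CPM in both whole worm groups. For 9 members (col-35, col-36, col-37, col-56, col-75, col-102, col-126, col-127 and col-185) no library held a count. A group with no count allows up to 0.0684 to 0.0888 CPM, the value of 3 counts over its libraries.

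The same 5 genes led the family in both karyotypes once levels were divided by exonic length. On that scale col-119 was first, at 4565 CPM per kb in XO worms and 5024 in XX worms, and col-140, col-20, col-122 and col-124 filled the next places. The 3 XO worms held col-119 at 3688, 3583 and 4645 CPM and the 3 XX worms at 3957, 5100 and 4057. These values overlapped, and the log2 fold change of XO over XX was -0.11 (SE 0.13), which did not pass. Of these 5, col-124 was lower in XO, at 3071, 2946 and 3689 CPM against 3724, 5373 and 4024. Its groups did not overlap, but the difference was small, at -0.40 on the log2 scale (SE 0.14, adjusted p = 0.0267 from edgeR's quasi-likelihood test, Benjamini-Hochberg, as for every adjusted p below), and the call was lost without XO worm 1, XO worm 2 or XX worm 2. Without these 5 genes the share of col counts was 2.72% in XO and 2.67% in XX worms.

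XO and XX whole worms were compared to see how the male and the female body differ in their cuticle genes. Of 97 col genes with enough counts to test, 43 were higher in XO worms, 23 were lower and 31 did not pass, and 61 were not tested for low counts. Over all 12259 genes tested, 29.2% were called higher and 24.2% lower, so members were called higher more often (44.3%) and lower about as often (23.7%). The median log2 fold change was 0.45 over the tested members and 0.02 over all genes tested. The members were then described by level, with no test. Levels were split at 1, 20 and 200 CPM in the higher group, cuts that were chosen after the levels were seen. Among 65 members tested between 1 and 20 CPM, 39 were higher in XO and 8 lower (60% and 12.3%, against 39.4% and 18.6% of all genes in that range). Among the 26 members of 200 CPM or more, 3 were higher and 11 lower (11.5% and 42.3%, against 18.3% and 43.3% of all genes at such levels). All 5 members between 20 and 200 CPM had lower means in XO, and 4 of them passed as lower, where 20.7% of all genes in that range were higher and 27.3% lower. With 1 library left out, 34 of the 43 higher and 18 of the 23 lower calls were kept in all 6 cases, and none changed sign. A fit on all 12 libraries, which pools the spread of gonads and worms, called 42 higher and 11 lower. Among the calls lost in it were those of col-19, col-95, col-124, col-129 and col-160, which are described by name.

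**Figure D1:**
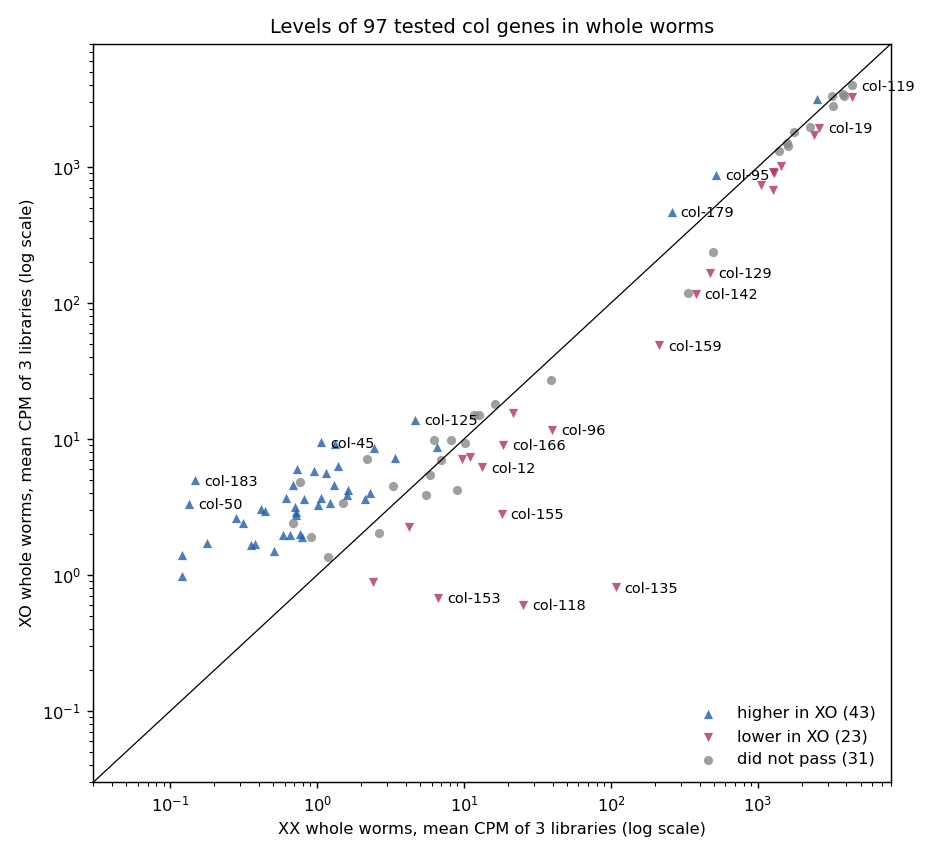
Mean CPM of the 97 tested col genes in XX (horizontal) and XO (vertical) whole worms, n = 3 libraries each, both axes on a log scale, with the line of equal levels. Genes higher in XO (43, blue) lie mostly at a few CPM, genes lower in XO (23, purple) reach from 2.38 to 4374 CPM, and the most abundant genes lie near the line.

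The strongest difference in the family belonged to col-135, a gene on chromosome IV with a coding length of 1980 bases, where the median of coding members is 912. It stood at 1.96, 0.0748 and 0.397 CPM in the XO worms and at 80.4, 127.9 and 113.4 CPM in the XX worms. Every XX worm library was far above every XO worm library. The log2 fold change was -7.27 (SE 0.54, adjusted p = 2.72e-04). It was also lower in XO gonads, at 0.145, 0.426 and 0 CPM against 5.52, 12.1 and 5.93 in XX gonads, again with no overlap (log2 fold change -5.15, SE 0.79, adjusted p = 0.0047). The calls in both tissues held with each library left out, and the gonad value then ran from -6.54 to -4.59. In XX animals its gonad level was 13.7 times below its worm level.

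On the same chromosome, col-118 was found at 0.764, 0.449 and 0.595 CPM in XO worms and at 21.3, 28.6 and 26.1 in XX worms. The groups were far apart, with a log2 fold change of -5.38 (SE 0.22, adjusted p = 1.14e-10), and unlike col-135 it had no count in any gonad library. In XX animals its worm level was at least 347.3 times its gonad level, set against a floor of 3 counts over the 3 gonads. The other genes of this kind by the naming rule were col-155 (log2 fold change -2.68), col-159 (-2.11), col-96 (-1.72), col-142 (-1.66), col-129 (-1.47), col-12 (-1.10) and col-166 (-1.05). Each of them had separate groups. The call for col-129 was lost without XO worm 2, XO worm 3, XX worm 2 or XX worm 3, with adjusted p up to 0.115, and the others kept theirs. A further member picked out after its values were seen, col-153, held 1.2, 0.374 and 0.463 CPM in XO and 6.4, 7.08 and 6.59 in XX worms (-3.38, SE 0.31, adjusted p = 7.08e-07).

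Most of these genes were present in both karyotypes. For col-155 the XO worms held 3.38, 2.47 and 2.58 CPM and the XX worms 15, 18.3 and 20.8. For col-159 the values were 72, 41 and 33.7 against 191.7, 213.4 and 229.2, and for its neighbour col-160, named after its values were seen, 775.1, 561 and 694 against 1206, 1333 and 1250. XO replicate 1 was the highest XO library for both of the neighbours. The annotated spans of these neighbours overlap on 1 strand, so the split of their reads is uncertain. For col-142 the XO worms held 154, 89.9 and 105.3 CPM and the XX worms 349.4, 420.4 and 356.4.

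**Figure D2:**
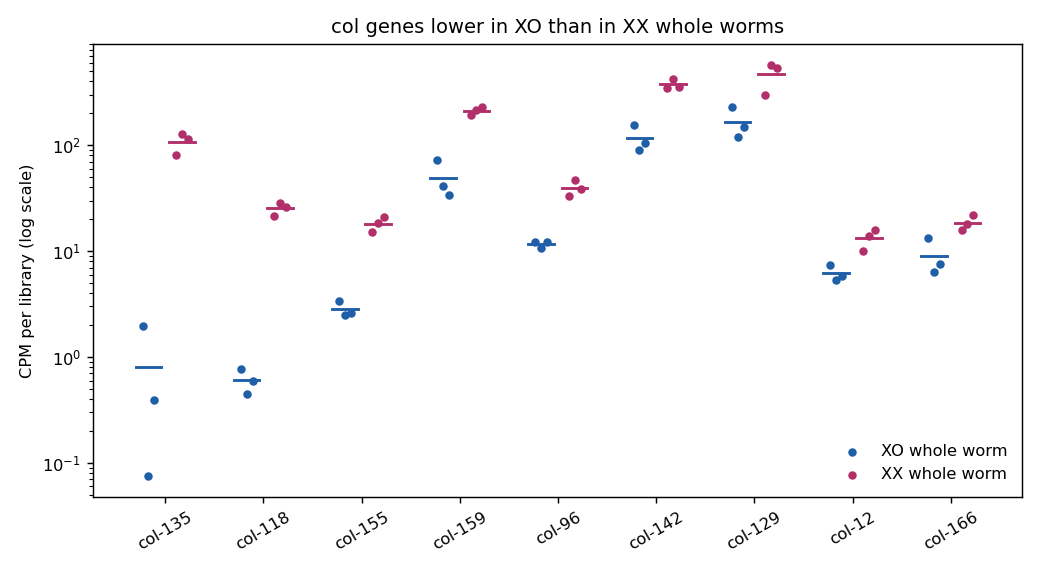
CPM in each whole worm library (log scale) of the 9 col genes that the naming rule picked as lower in XO, with a bar at the mean of 3 libraries. The 3 XO points of each gene lie below its 3 XX points, from 0.0748 to 1.96 against 80.4 to 127.9 CPM for col-135 and from 6.29 to 13.2 against 15.9 to 21.7 for col-166.

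Genes higher in XO worms were mostly rare transcripts. Of the 43, 40 stayed under 20 CPM, and only col-125 met the naming rule, which asks for 10 CPM. It stood at 12.1, 13.6 and 15.8 CPM in XO and at 3.37, 3.96 and 6.66 in XX worms. The XO libraries were all higher, with a log2 fold change of 1.59 (SE 0.21, adjusted p = 4.09e-05). The following genes were picked after their values were seen, as the largest changes at low level. Transcripts of col-183 were at 3.38, 6.06 and 5.49 CPM in XO and 0.164, 0 and 0.277 in XX worms (log2 fold change 4.97, SE 0.47, adjusted p = 8.9e-07). Those of col-50 were at 3.49, 3.37 and 3.11 CPM against 0.164, 0.169 and 0.0693 (4.60, SE 0.40, adjusted p = 3.73e-07). For both genes the XX worms held few counts, 6 over the 3 libraries in the case of col-183. Transcripts of col-45 were at 7.42, 9.13 and 11.8 CPM in XO and 1.23, 1.18 and 0.763 in XX worms, a log2 fold change of 3.22 (SE 0.25, adjusted p = 1.25e-07).

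The 40 low genes summed to 166.3, 156 and 182.2 CPM in the XO worms and to 36.2, 36.9 and 65.5 in the XX worms. These genes were chosen as higher in the same XO libraries, so the gap between the XO and XX sums was fixed by the choice. The XX worms were not alike: among 66 tested members under 20 CPM, whichever their direction, XX worm 3 was the highest XX library for 45, XX worm 1 for 9 and XX worm 2 for 12. Examples are col-73, at 0.0821, 0.0843 and 2.01 CPM in XX worms against 7.75, 3.82 and 6.55 in XO worms, and col-161, at 0.0821, 0.0843 and 1.66 against 2.62, 4.12 and 4.3. Both passed the test on all 6 libraries (adjusted p = 0.035 and 0.0291). With a library left out, col-73 lost its call without XO worm 1, XO worm 3, XX worm 1 or XX worm 2 (adjusted p up to 0.107), and col-161 without XO worm 2 or XO worm 3 (up to 0.101). Neither lost it without XX worm 3. Without XX worm 3, 46 members were called higher in XO, a count given without the share of all genes in that fit.

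**Figure D3:**
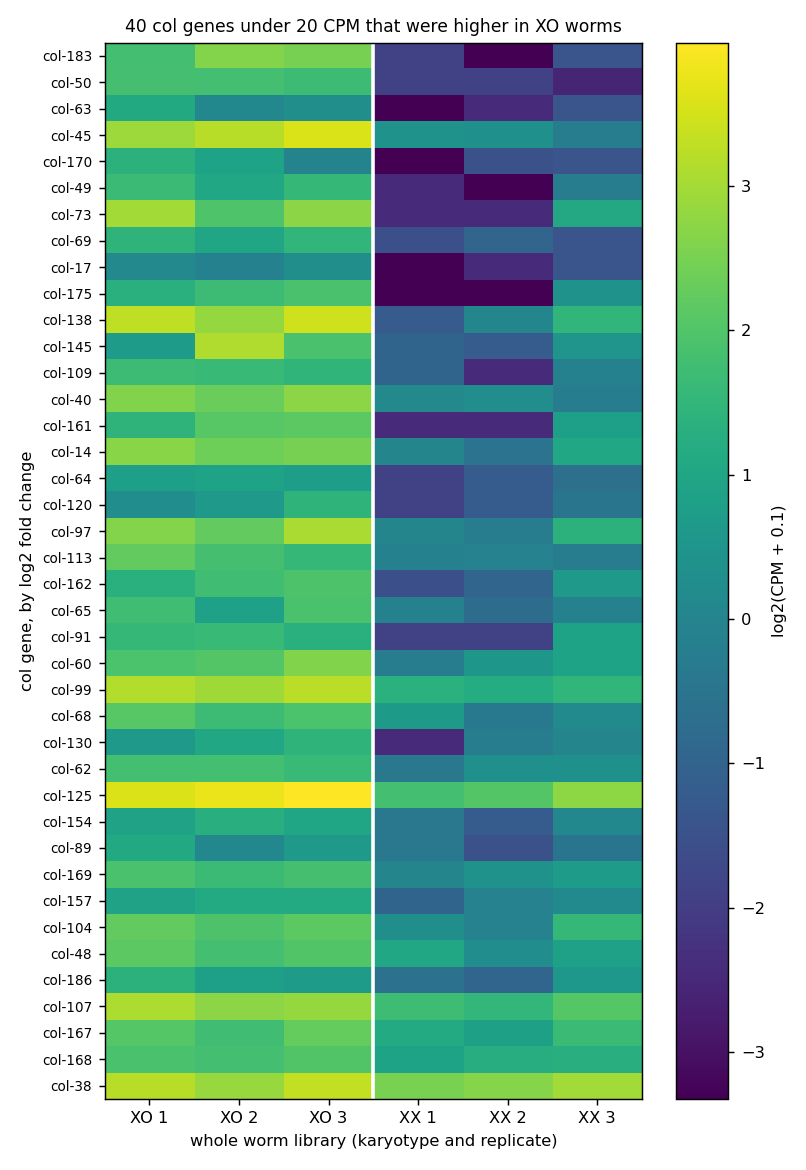
Levels, as log2(CPM + 0.1), of the 40 col genes under 20 CPM that were higher in XO worms, in the 3 XO (left) and 3 XX (right) whole worm libraries, ordered from the largest to the smallest fold change. XX worm 3 is the lightest of the XX columns in many rows, with a summed level of 65.5 CPM against 36.2 and 36.9.

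Members with known patterns did not move as a block. The adult marker col-19, whose promoter is a standard reporter of the adult epidermis and is activated by the zinc finger protein LIN-29, held 1921, 1717 and 2142 CPM in XO and 2317, 3009 and 2463 in XX worms. The XX worms were all higher, by a small margin (log2 fold change -0.40, SE 0.11, adjusted p = 0.0083, with 0.0509 when XO worm 2 was left out). The larval gene col-17 was rare but higher in XO worms, at 0.982, 0.823 and 1.12 CPM against 0, 0.0843 and 0.277 (2.86, SE 0.61, adjusted p = 0.00136). Transcripts of col-40 were at 6, 4.86 and 6.48 CPM in XO and 0.985, 1.1 and 0.763 in XX worms (2.64, SE 0.25), and those of col-62 at 3.38, 3.37 and 2.98 against 0.657, 1.18 and 1.18 (1.70, SE 0.29). Both of these had separate groups. The transmembrane collagen col-99 was at 8.84, 7.63 and 9.26 CPM against 2.46, 2.19 and 2.7 (1.83, SE 0.18, adjusted p = 1.5e-06), and its gene overlaps a coding gene on the other strand. The dauer gene col-2 and the adult gene col-7 had too few counts to test, with no whole worm library above 0.823 CPM. Values for col-10 (-0.46, SE 0.29) and col-13 (0.46, SE 0.30) did not pass, while col-12, the neighbour of col-13, fell by 1.10 on the log2 scale (SE 0.19).

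Calls were counted by chromosome, with no test between chromosomes. On chromosome I, 9 of 10 tested members were higher in XO worms and none lower, and on chromosome V 5 of 24 were higher and 10 lower. The percentages for all genes tested were 23.8% higher and 23.7% lower on chromosome I and 36.2% and 18.8% on chromosome V. On the X chromosome 8 of 16 tested members were higher and 2 lower, where 29.8% and 42.1% of all X-linked genes were. Of the tested members 42.9% were higher and 14.3% lower on chromosome II, 36.4% and 27.3% on chromosome III, and 50% and 27.3% on chromosome IV. The percentages for all genes tested were 28.7% and 24.1% on chromosome II, 24.1% and 20.7% on III, and 32.3% and 19.6% on IV. There were 26 pairs of members with no other coding gene between them. In 16 of these pairs both genes could be tested, and 7 pairs shared a sign. Both members passed in 6 pairs, 4 of them in the same direction. These 4 are col-159 with col-160, whose annotated spans overlap, and the pairs within the single run from col-167 to col-170. Pairs of that run share members and are not separate cases, and no share over neighbouring pairs of all genes is given. A run of 4 X-linked genes that stood out after the values were seen, col-167, col-168, col-169 and col-170, was higher in XO worms throughout (0.82, 0.80, 1.46 and 3.15), though DESeq2 did not call col-167 or col-168, and the call for col-167 was also lost without XO worm 3 or XX worm 2. The neighbours col-95 and col-96, on chromosome III, went opposite ways: col-95 was at 856.7, 817.6 and 958.8 CPM in XO and 568, 519.6 and 475 in XX worms (0.79, SE 0.08, adjusted p = 2.2e-06), and col-96 at 12.3, 10.6 and 12.3 against 32.9, 47.2 and 38.5 (-1.72, SE 0.14, adjusted p = 2e-07). The X-linked col-183 also lies beside an abundant gene, col-184, whose level did not pass the test between karyotypes (-0.05, SE 0.09).

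In 48 members the annotated gene overlaps a coding gene on the other strand, and in 7 on the same strand. Of the 43 members higher in XO worms 12 have such a partner on the other strand, and of the 23 lower ones 7. Reads of such pairs cannot be told apart with certainty, because the strand setting of the counting was not given in the sources used. Reads with several places in the genome were set aside by the counting, so near-identical members may be undercounted. They were 4.99% to 8.8% of gonad libraries, 12.8% to 14.2% of XO worm libraries and 17.6% to 20.3% of XX worm libraries. The worm groups do not overlap in this, and its part in the karyotype results was not tested.

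Other genes of the cuticle, of collagen processing and of the epidermis were compared in whole worms as well. Their counts are to be read against the 29.2% higher and 24.2% lower of all genes tested there. Of the furrow collagens, which mark the ring-shaped grooves of the cuticle, 3 of 6 could be tested and 2 were higher in XO, dpy-2 (1.49, adjusted p = 0.00651) and dpy-9 (1.92, adjusted p = 5.46e-04). Among 14 other collagens named for their mutants 8 were tested and 5 were higher, among them dpy-4 (2.53), dpy-13 (2.94) and rol-8 (1.59), and none was lower. Their summed level was 53.7 to 81.9 CPM in XO worms and 35.7 to 46.6 in XX worms. Of the genes that modify and process collagen chains, a list not limited to the cuticle, 2 of 13 tested were higher and 6 lower. The prolyl hydroxylase subunit dpy-18 fell by 0.51 (adjusted p = 3.87e-04), the hydroxylase-family gene phy-3 fell by 3.05 (adjusted p = 9.78e-06) and the lysyl hydroxylase let-268 fell by 1.43 (adjusted p = 1.41e-05). The protease dpy-31, which trims collagen ends, rose by 0.52 (adjusted p = 9.66e-05). Among 23 tested regulators of epidermis, molting and body size 6 were higher and 7 lower, shares near those of all genes. Transcripts of lin-29, the activator of the adult programme, were at 15.4 CPM in XO and 4.14 in XX worms (1.92, adjusted p = 1.53e-07), and those of its cofactor mab-10 at 21.9 and 11.3 (1.00, adjusted p = 4.44e-06). The glypican gene lon-2, a brake on body growth, fell by 1.48 (adjusted p = 9.78e-06).

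Markers of other tissues also differed in level between XO and XX worms, and their part in the col results was not tested. The shares of all genes called, 29.2% higher and 24.2% lower, apply to these counts too. Of 7 epidermis markers, 3 were tested in whole worms, with elt-3 higher in XO (0.79) and mlt-10 lower (-1.01), and the list summed to 21.1 to 24 CPM in XO and 17.4 to 20.9 in XX worms. Of 11 tested muscle markers 9 were higher in XO worms, and of 10 neuron markers 8 were higher and 1 lower. Of 9 germline markers 1 was higher and 6 were lower, with a median of -0.21, and of 9 intestine markers 2 were higher and 4 lower.

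Dissected gonads held col transcripts at a small share of their counts. The XO libraries gave shares of 0.0897%, 0.103% and 0.0941%, and the XX libraries 0.0737%, 0.0643% and 0.0366%, or 0.0955% ± 0.00661 and 0.0582% ± 0.0193 (SD, n = 3). The XO values were all higher, and XX gonad 3 was the lowest library. Without the 5 leading genes the shares were 0.0562% and 0.0367%. The 26 abundant members made up 95.1% of gonad col counts in XO animals and 90.1% in XX animals. Per kb the same 5 genes led the family in both kinds of gonad as in worms, col-119 being first in XO (93.8 CPM per kb) and col-122 first in XX (55.2).

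Gonads were compared with whole worms of the same karyotype to show which members are present in the dissected tissue. In XO animals 92 of 98 tested members were lower in gonads and 1 was higher, where 50.3% and 29.6% of all 12528 genes tested were. In XX animals 71 of 98 were lower and 3 were higher, where 42.4% and 28.5% of all genes were. The medians of the tested members were -5.54 in XO and -5.87 in XX on the log2 scale, against -0.83 and -0.32 over all genes. With 1 library left out, 91 of the 92 lower calls in XO animals and 67 of the 71 in XX animals were kept in every case. Both comparisons use the libraries of the same 12-library fit. Scaling by DESeq2's size factors shifted the median of all genes by -0.144 in XO and -0.129 in XX animals. With this scaling the counts of lower members were 92 in XO and 73 in XX animals, against 92 and 71.

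The abundant members stood at a few percent of their worm level in gonads. In XO animals the gonad level of the 26 genes was 1.64% to 4.01% of the worm level, with a median of 2.14%. In XX animals it was 0.531% to 1.8%, with a median of 1.28%. The lowest XX value was that of col-95 and fell to 0.228% without XX gonad 1. In that case the next lowest, col-19, was at 0.724% and the median at 0.965%. Without XX gonad 3 the XX values ran from 0.699% to 2.36%, with a median of 1.62%. The XO values ran from 1.1% to 4.85% without XO gonad 3 and from 1.49% to 2.97% without XO gonad 2. Markers of other tissues of the body were compared with the ranges from all libraries. Intestine markers in gonads stood at 2.8% of the worm level in XO and 1.07% in XX animals, muscle markers at 1.25% and 6.33%, and neuron markers at 20.2% and 60.5%. Most of the neuron sum in gonads was snb-1, a vesicle protein gene at 76.2% and 137.1% of its worm level. Other neuron markers were spread widely: unc-119 stood at 49.6% and 92.6%, ric-19 at 38.1% and 46.4% and unc-31 at 20.6% and 27.1%. The lowest included ida-1 at 2.02% and 1.32% and egl-3 at 1.68% and 4.71%. Germline markers were higher in gonads, at 186.9% and 185.2% of the worm level, and all 9 passed in both karyotypes. The 7 epidermis markers stood at 27.4% and 55.1%. Most of this came from mlt-10, at 3.81 CPM in gonads of XO animals and 9.21 in those of XX animals. Of the others, elt-3 stood at 3.1% and 2.4% of its worm level, wrt-10 at 79.2% and 18.5% and che-14 at 86.2% and 74.8%. For wrt-1 the XO gonads held no count and the XX gonads 10, at 52.3% of the worm level. How much of the col signal in gonads came with other tissue was not tested.

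**Figure D4:**
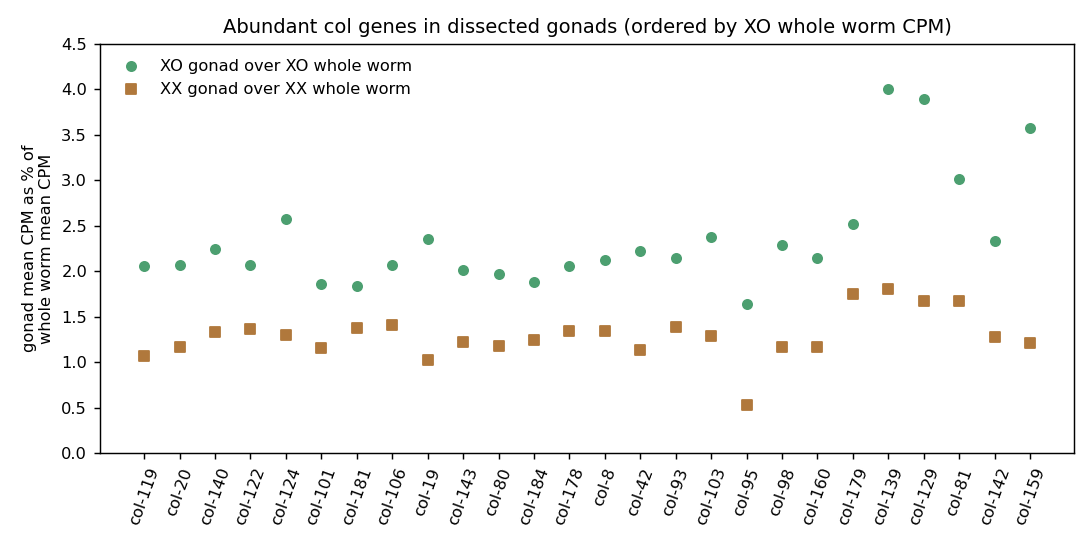
Mean CPM in gonads as a percentage of mean CPM in whole worms for the 26 abundant col genes, in XO (circles) and XX (squares) animals, ordered by their level in XO worms. With all libraries included, the XO values lie between 1.64% and 4.01% and the XX values between 0.531% and 1.8%.

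The largest falls by the naming rule were of genes with no or few gonad counts. In XX animals col-118 is given above, col-133 was at least 85.9 times higher in worms, and col-96 held 1 count over the 3 XX gonads against 1516 in worms, a ratio of 1520 (95% counting interval 272.4 to 60084). In XO animals col-73 was at least 88.3 times higher in worms than in gonads, col-145 at least 66.8 times and col-161 at least 53.8 times. None of these 3 had a count in XO gonads. In all, 33 members had no count in any gonad library.

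A few members were as abundant in gonads as in worms. Transcripts of col-111 were at 8.89, 8.16 and 8.49 CPM in the XO gonads, 12.6, 8.71 and 7.18 in the XX gonads, 4.91, 4.86 and 6.55 in XO worms and 6.4, 4.89 and 6.24 in XX worms. The gonad libraries were all above the worm libraries of their karyotype (log2 fold change 0.57, adjusted p = 0.00727 in XO and 0.60, adjusted p = 0.00625 in XX). The gene overlaps psr-1 on the other strand, and neither call held with DESeq2 (the XO call was also lost with its size factors in edgeR). For col-38 the values were 8.38, 8.52 and 7.77 CPM in the XO gonads, 11, 9.16 and 7.96 in the XX gonads, 9.17, 7.18 and 9.92 in XO worms and 5.58, 6.24 and 7.7 in XX worms. It was higher in gonads than worms in XX animals (0.45, adjusted p = 0.0257), a call lost with the other size factors, and did not pass in XO animals (-0.15, adjusted p = 0.398). The third gene called higher in XX gonads was col-64, at a mean of 1 CPM (1.29, adjusted p = 0.0313), named because the count is small. Of these 3 calls 1 was left without XX gonad 2, without XX worm 1 or without XX worm 2.

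XO and XX gonads were compared to see whether the karyotype and the sex of the body alter what is found in the gonad. Of 38 members tested, 7 were higher in XO gonads (col-19, col-45, col-95, col-101, col-119, col-140 and col-179), 2 were lower (col-71 and col-135) and 29 did not pass, with 120 not tested. Over all 8558 genes tested, 8.07% were higher and 19.7% lower. The median was 0.59 over the tested members and 0.02 over all genes. Of the 7 higher genes, 6 are among the 26 abundant ones, and col-45 is not. All 5 tested intestine markers were higher in XO gonads too, with sums of 111.5 to 145.3 CPM against 29.6 to 67.2 in XX gonads. Of 11 tested muscle markers none was higher and 6 were lower. The part of other tissue in the gonad differences was not tested.

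The number of higher calls depended on single libraries. It was 1 when any single XO gonad library was left out and 2 without XX gonad 2, and 15 without XX gonad 1. Shares of all genes called in these refits are not given here, so the change is not read as particular to col genes. A fit on all 12 libraries called 15 higher and 4 lower, and a fit with no filter on low counts 4 and 3, in which col-101 and col-179 were the only ones of the 7 still called. Of the 7, col-179 alone kept its call in every such fit. The abundant X-linked gene col-179 held 13.2, 11.7 and 10.6 CPM in the XO gonads and 6.41, 4.35 and 2.81 in the XX gonads (1.58, SE 0.22, adjusted p = 0.00266). Its XO libraries were all higher in worms as well, at 473.7, 409.2 and 520.8 CPM against 218.2, 299.7 and 255.5 (0.89, SE 0.13, adjusted p = 4.79e-04). For col-95 the gonad values were 11.3, 8.03 and 23.8 CPM against 5.92, 1.36 and 1.01 (2.66, SE 0.69, adjusted p = 0.0368). XO gonad 3 and XX gonad 1 were the highest of their groups, and the groups did not overlap. For col-101 they were 54.9, 56.6 and 63.5 CPM against 44.7, 28.8 and 14.6 (1.21, SE 0.28, adjusted p = 0.0232). For col-119 they were 77.5, 86.5 and 80.7 CPM against 72.4, 43.9 and 23.2 (1.03, SE 0.29, adjusted p = 0.0413), and for col-140 71.5, 81.4 and 70.6 against 66, 40.3 and 21.4 (1.03, SE 0.29, adjusted p = 0.0419). XX gonad 1 lay close to the XO gonads for these genes and XX gonad 3 was far below.

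The 2 members lower in XO gonads kept their calls with each library left out, though for col-71 the adjusted p then reached 0.0495. The gonad level of col-71 was 6.07, 4.81 and 6.72 CPM in XO and 12.7, 12.1 and 11.6 in XX animals. The groups were well apart (log2 fold change -0.91, SE 0.18, adjusted p = 0.0123). In whole worms it was at 15.7, 10.9 and 18.3 CPM in XO and 11.8, 10.4 and 12.8 in XX animals, which overlapped (0.39, SE 0.17, adjusted p = 0.0749). The XX gonads thus held it at the level of the XX worms, and the XO gonads below the XO worms.

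The X-linked members that could be tested were not lower in XO gonads, and most had too few counts to test. Of 28 X-linked members 5 were tested in gonads, with log2 fold changes of 0.43 to 1.58, 2 of them higher and none lower. Among all 955 X-linked genes tested 777 were lower, with a median of -2.90. These 5 genes (col-19, col-178, col-179, col-181 and col-184) are all among the 26 abundant ones in worms.

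**Figure D5:**
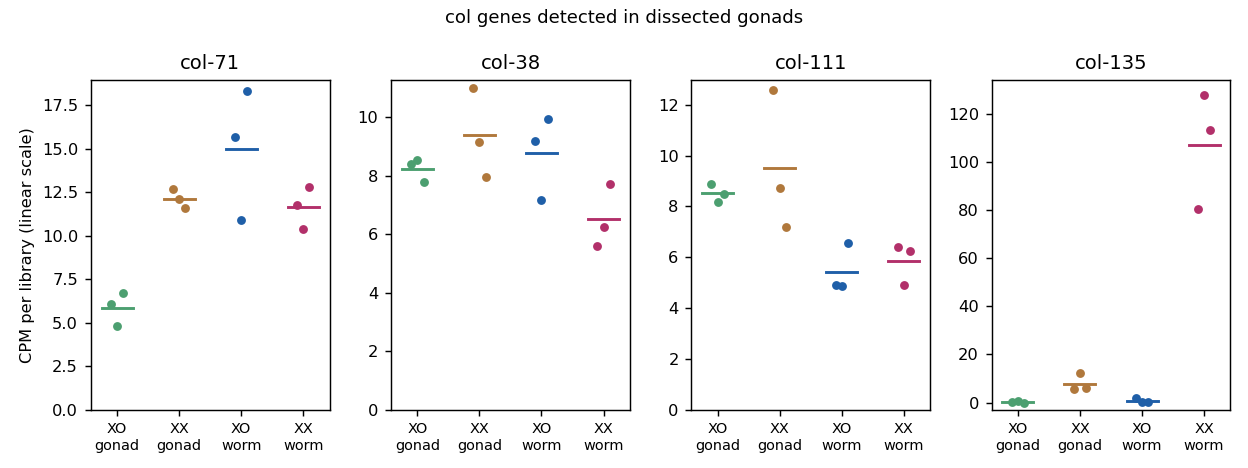
CPM in each of the 12 libraries (linear scales, one per gene) for 4 col genes detected in gonads, with a bar at the mean of 3 libraries. For col-71 the XO gonads (4.81 to 6.72) lie under the other 9 libraries, for col-111 the gonads lie above the worms of the same karyotype, and col-135 is high in the XX worms (80.4 to 127.9).

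Whether the karyotype difference itself differed between gonad and worm was tested on all 12 libraries. Of 98 members tested, 5 had a more positive log2 fold change of XO over XX in gonads than in worms and 5 a more negative one, where 2.96% and 14.1% of all 12528 genes did. The difference was positive for the abundant genes col-19 (1.28, SE 0.31, adjusted p = 0.0152), col-42 (1.03, SE 0.29, adjusted p = 0.0316) and col-98 (1.01, SE 0.21, adjusted p = 0.00491). These had lower means in XO than XX worms and higher means in XO than XX gonads. It was negative for col-71 (-1.41, SE 0.28, adjusted p = 0.00355), as the values above show, and for col-45 (-2.47, SE 0.38, adjusted p = 5.66e-04). Transcripts of col-45 were called higher in XO in both tissues, but by less in gonads (log2 fold change 0.86). That gonad call was lost whichever of the 6 gonad libraries was left out, with adjusted p up to 0.12. Of these 5 interaction calls, that of col-42 was lost in 6 of the fits with a library left out, with adjusted p up to 0.0782. The positive count was 3 with no filter on low counts, 2 without XO gonad 2, 3 without XO gonad 1, 9 without XX gonad 3 and 14 without XX gonad 1. The remaining 5 differences (col-68, col-96, col-99, col-155 and col-169) rest on gonad levels near 1 CPM or below.

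Genes of collagen processing were read from the same gonad fit. Of 10 tested, 6 were lower in XO gonads and none higher, where 19.7% and 8.07% of all genes were. The X-linked pdi-2, which encodes the partner subunit of the prolyl hydroxylases, had a gonad level of 64.8 CPM in XO and 585.1 in XX animals (-2.99, adjusted p = 5.04e-05), and did not pass in worms, at 760.5 and 818.6 (-0.07, adjusted p = 0.415). Its partner dpy-18 had gonad levels of 8.95 and 31.3 CPM (-1.63, adjusted p = 8.7e-04). Transcripts of phy-3 were at 0.0647 and 4.24 CPM (-5.64, adjusted p = 4.39e-04). Of 12 basement membrane genes tested in gonads, 4 were lower in XO and 1 higher, against the same 19.7% and 8.07% of all genes. The collagen IV chains emb-9 (13.7 against 170.4 CPM) and let-2 (19 against 325.3) were among the lower ones.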

How the data were processed

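The authors deposited raw read counts per gene for each of 12 libraries, with no normalization, in files of 20389 gene rows. Per the labels' protocols, polyadenylated RNA was purified with oligo(dT) beads and the libraries were stranded by dUTP. The tools named, per the submitters' processing notes, are Cufflinks 2.2.0, HTSeq, SAMtools 1.2, TopHat2 2.0.12 and CASAVA 1.8. No coordinates are printed, since the build behind the counts, its annotation and the strand setting are not given in the sources used here. Summary lines for reads with no gene or several genes (2.93% to 7.15% of a library) and with several places (4.99% to 20.3%) entered neither library sizes nor tests. Symbols, lengths and chromosomes came from the WBcel235 annotation, which matched 19899 rows to 1 gene and left 490 unmatched. Both pseudogenes were named from RefSeq's gene table. Sequences of the members were not used here.

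All genes were tested with edgeR 4.0.16 (R 4.3.3), with TMM scaling, filterByExpr (minimum count 10) and robust quasi-likelihood fits. Tests were 2-sided, and p-values were adjusted by Benjamini-Hochberg over all genes tested, with a threshold of 0.05. XO and XX were compared within each tissue on 6 libraries, and the interaction and tissue comparisons used all 12. Standard errors (SE) came from the F statistic. For a group with no count the fold is a lower bound, set against 3 counts in that group, and with 1 to 3 counts a ratio has its counting interval. Amplified reads are not independent molecules, so intervals and floors cover counting error only. The fits were tested on simulated data with the same spread for all genes and libraries, and with changes only in genes of higher counts. That simulation does not cover rare members or a library that stands apart. Alternatives were DESeq2 1.42.0, its size factors in edgeR, no filter, a replicate block, a 12-library fit and each library left out.

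The members and gene lists were chosen with earlier results of these data known. Genes were named by rule: in whole worms up to 10 per direction with adjusted p under 0.05, a 2-fold change, no overlap and 10 CPM. For gonads up to 6 per direction needed 1 CPM, for the interaction up to 4 needed 10 CPM, and for tissues up to 3 needed 1 CPM. The 5 highest per kb and 11 fixed members were always included, with up to 3 members of each list. Genes outside the rule are said to be chosen after their values were seen, or are members counted in a small group.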

Additional observations from a re-analysis of the deposited data

Results flagged for a closer look

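For 10 col genes the log2 fold change of XO over XX differed between gonads and whole worms by the interaction test on all 12 libraries (edgeR's quasi-likelihood test, Benjamini-Hochberg adjusted p under 0.05), and each is given as the gonad value minus the worm value. The difference was positive for col-19 (1.28), col-42 (1.03), col-98 (1.01), col-96 (3.92) and col-155 (3.39). For col-19, col-42 and col-98, the XX worms were higher than the XO worms while the gonads leaned the other way. In gonads col-98 held 15.9, 18.7 and 15.7 CPM in XO and 14.3, 14 and 7.88 in XX animals. In gonads col-96 held 7 counts over the XO and 1 over the XX libraries, and col-155 held 8 and 4, so their gonad folds rest on very few reads.

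The difference was negative for col-45 (-2.47), col-68 (-2.40), col-71 (-1.41), col-99 (-1.84) and col-169 (-5.07). Transcripts of col-68 were higher in XO worms, at 4.15, 3.14 and 3.7 CPM against 1.48, 0.674 and 1.04, and overlapped in gonads, at 0.578, 0.852 and 1.25 against 1.77, 1.17 and 1.33. In XO gonads col-169 had no count, and XX gonads held 4, so its fitted value is no measure of size. With 1 library left out, col-19, col-98, col-45, col-68 and col-71 kept their calls, while the other 5 lost theirs in at least 1 such fit.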

How the results depend on the processing

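Counts of col genes called higher were the values most open to change. Where 7 genes were called higher in XO gonads, a fit with no filter on low counts called 4 and the fit on all 12 libraries 15. The 12-library fit pools the spread with that of worms, and it called 4 genes lower in XO gonads and 11 lower in XO worms. With single libraries left out, the gonad count ran from 1 to 15 and the count of positive interactions (5) from 2 to 14, and the latter was 3 with no filter. The 3 genes higher in XX gonads than worms became 1 with DESeq2's size factors and 0 with DESeq2, and ran from 1 to 3 without a library. The 1 gene higher in XO gonads than worms became 0 with both. The cause of these shifts was not tested, and the shares of all genes called in the same refits are not given here. Without the 5 leading genes, col shares were 0.0562% in XO gonads, 0.0367% in XX gonads, 2.72% in XO worms and 2.67% in XX worms. For named genes, 1294 of 1392 values under an alternative kept their call, 98 lost it and 0 changed direction. The gonad percentages without a library were added after seeing the data.

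Same-numbered libraries did not deviate together (correlations -0.52, -0.24 and -0.165 in gonads and -0.015, -0.015 and -0.073 in worms), and were not treated as pairs. Between XO and XX gonads of different numbers the correlations ran from -0.425 to 0.528. With the replicate number as a block, 1 col gene was called higher in XO gonads, and every other count of calls stayed within 1.5 times. Gonad levels near 1 CPM limit what could be tested there, since 120 members were not.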
